A study of Sus scrofa with 22 samples.

Results

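Chemotherapy of 2 kinds was compared with no treatment in the small intestine of piglets, to find the changes that both regimens share. All 22 of the 22 arrays in the series entered this comparison, 11 from treated and 11 from untreated piglets. The piglets were specific-pathogen-free crosses of Large White and Danish Landrace, labelled as 3 days old, and each array held the intestinal RNA of 1 piglet in Cy5 against a pool of all samples in Cy3. In one experiment 6 piglets received doxorubicin (DOX) and 6 were untreated. In the other, 5 piglets received busulfan plus cyclophosphamide (BUCY) and 5 were untreated. Whether the piglets were 3 days old when treated or when sampled is not said in the labels. The sources used here give neither the part of the intestine nor the time after treatment, the doses or the litters. No array had the dyes the other way round, so a dye effect of a probe falls on all groups alike.

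Doxorubicin poisons topoisomerase II, and busulfan and cyclophosphamide alkylate DNA, so these drugs damage dividing cells by different routes. The gut is a main site of their toxicity, because its crypts renew the epithelium without pause and its wall holds a large part of the body's lymphocytes. Between that epithelium and the bacteria of the lumen stand secreted lectins, lysozyme, mucins and complement, and behind it macrophages, mast cells and T cells.

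Levels are log2 ratios of the piglet signal over the pool signal after background correction and loess normalisation. The common effect is the treated minus untreated difference in these log2 ratios, fitted by limma with the experiment as a block, so that treated piglets are set against the untreated piglets of their own experiment. The DOX experiment carries 54.5% of the weight in this estimate and the BUCY experiment 45.5%. A gene was called when its p-value, adjusted by Benjamini-Hochberg over all 24761 genes tested, was under 0.05. Every adjusted p below is from limma.

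Per array, 59.7% to 72.5% of probes were well above background, and precision is limited by the number of arrays. Of the 12 enterocyte genes tested, 12 were well above background on all 22 arrays, and of 9 tested genes of pancreas and liver 4 were. Lists not particular to the gut did as well, with 13 of 13 cell cycle genes, so these counts do not identify the tissue. BUCY treated arrays 2 and 3 stood apart from the rest on the second principal component, which held 25.7% of the variance. Their scores were 55.3 and 67.5, and the highest of the other arrays, DOX treated array 1, scored 28.5. BUCY treated array 3 also had the lowest median Cy5 signal, 88, where the others had 103.5 to 210. The untreated piglets of the 2 experiments differed as well, in 6241 genes (25.2%).

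Chemotherapy changed 1802 of the 24761 genes (7.28%) when both experiments were read together, 867 higher (3.5%) and 935 lower (3.78%) in treated piglets. At an unadjusted p under 0.05 the count was 6813 (27.5%). Changes of more than 2-fold numbered 55 higher and 63 lower. A gene symbol was known for 2619 of the genes tested, and 284 of these (10.8%) were called, 133 higher (5.08%) and 151 lower (5.77%). All tested members of the gene lists below have a symbol, so these shares are the nearer background for their counts. The count depended on single arrays: it was 1119 without DOX treated array 1, 1118 without DOX treated array 2 and 1020 without BUCY treated array 2. It was 1088, 1034 and 1159 without BUCY untreated array 1, 2 or 3, and 2946 without BUCY treated array 1. With both BUCY treated arrays 2 and 3 left out it was 808. Median centring in place of loess gave 215 higher and 719 lower, a lower share of increases than under loess.

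All 1802 genes called for the common effect had one sign in both experiments, which calling a pooled effect favours. Without that selection, 59.8% of all genes tested and 59.9% of the genes called after BUCY had one sign in both. Of the 210 genes called after DOX, 161 (76.7%) had the same sign after BUCY. The correlation of the DOX and BUCY effects across genes was 0.302. The change was larger after BUCY in 1363 of the 1802 (75.6%), where the share over all genes was 66.3%. The median absolute log2 change of all genes was 0.18 after BUCY and 0.113 after DOX. Read alone, the BUCY experiment called 4277 genes (17.3%), 8.23% of all genes higher and 9.04% lower, and the DOX experiment 210 (0.848%), 0.368% higher and 0.481% lower. At an unadjusted p under 0.05 these shares were 32.3% and 13.8%. Of the 1802, 1209 (67.1%) were also called after BUCY alone and 152 (8.44%) after DOX alone, while 533 were called in neither experiment by itself. The test of the difference between the drug effects called 104 of the 1802 (5.77%), near the 5.88% it called among all genes. Both experiments share the Cy3 pool, and their untreated piglets are separate animals.

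**Figure D1:**
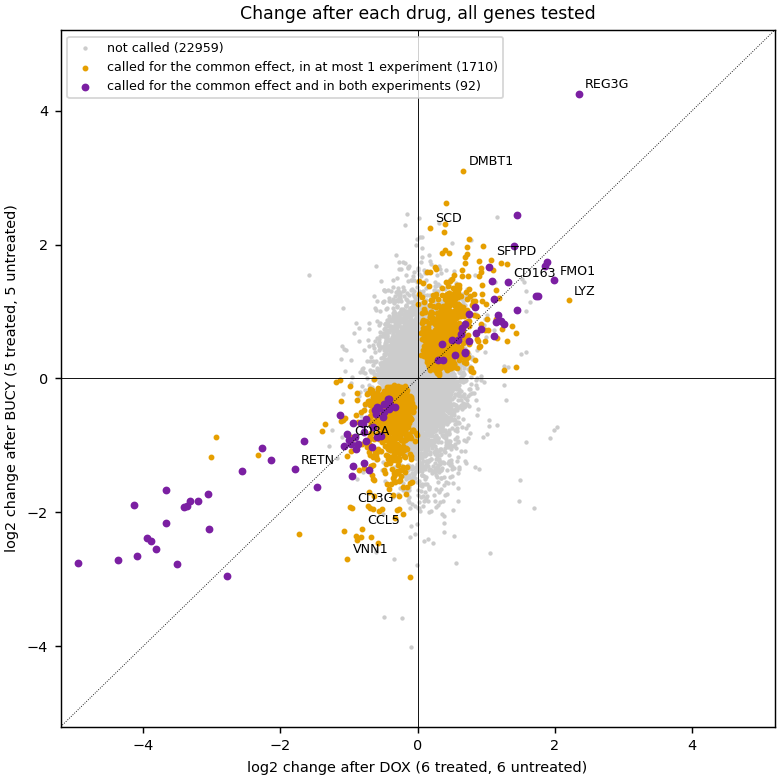
Log2 change after DOX (x axis) and after BUCY (y axis) for each of the 24761 genes tested; the dotted line marks equal change. Orange and purple points, 1802 in all, were called for the common effect, and the 92 purple ones were also called in each experiment alone; all lie in the upper right or lower left quadrant, and REG3G is the highest.

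A stricter count asks for a call in each experiment alone and in one direction. It held 92 genes (0.372%), 34 higher (0.137%) and 58 lower (0.234%), which were 43.8% of the DOX list and 2.15% of the BUCY list. Of these 92, 20 had a symbol. Higher after both were REG3G, CFB, CP, CD14, CD163, CD70, FMO1, PRKAA2 and KCNMA1. Lower after both were CD3E, CD8A, LCK, STAT4, CD1D, CCL21, CCR10, PSTPIP1, RETN, MS4A2 and PPARGC1A. The count was 59 without DOX treated array 1 and was 139 without DOX treated array 4.

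The deepest shared decreases belonged to array identifiers that no table used here ties to a gene. More than 4-fold higher was 1 gene, REG3G. More than 4-fold lower were 20 identifiers, 0 of them with a symbol, and how many separate genes they stand for is not known. Of those 20, 18 were also called in each experiment alone, and 12 had no overlap between treated and untreated piglets in both experiments. The log2 change of the 20 ran from -4.95 to -2.56 after DOX and from -2.94 to -0.88 after BUCY. In 19 of the 20 the decrease was larger after DOX.

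Genes of mucosal defence rose in part. Of 30 tested, 8 were called higher and 0 lower, against 3.5% and 3.78% of all genes, with a median common log2 change of 0.43 (all genes -0.00074). The list medians were 0.51 after DOX and 0.22 after BUCY, and 5 of the 30 differed between the drugs by test. Only 1 member was called in each experiment alone. Over single arrays left out the count called for the common effect was 6 to 10. It was 5 without the block for experiment, 5 on the Cy5 channel alone and 4 under median centring. REG3G, an antibacterial lectin of the gut lining active against Gram-positive species, was the gene raised more than 4-fold. Its level in DOX treated piglets ran from -1.99 to 1.43 with a median of -0.38, against -3.57 to -1.76 with a median of -2.85 in untreated piglets of that experiment. BUCY treated piglets had levels of 2.17, 1.61, 2.05, 0.35 and 2.38, against -2.75, -2.26, -2.40, -2.47 and -2.84 in their untreated piglets. The BUCY groups did not overlap, and in the DOX experiment 1 treated piglet lay under the highest untreated one. The common log2 change was 3.22 (SE 0.366), or 9.30-fold higher (adjusted p = 1.27e-05), with 2.35 after DOX and 4.25 after BUCY.

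Surfactant protein D (SFTPD), a collectin that recognises sugars on microbes, and its binding partner DMBT1, a large scavenger-receptor glycoprotein of mucosal surfaces, are the genes named in the study's title. SFTPD stood at 0.43 to 0.92 (median 0.65) in DOX treated piglets and at -1.43 to 0.40 (median -0.21) in untreated ones. Levels in BUCY treated piglets were 0.52, -1.07, -0.39, 0.06 and 0.62, against -1.29, -1.80, -2.50, -1.85 and -1.66 in untreated ones. Neither experiment had any overlap, although BUCY treated piglets 2 and 3 were below the median of the untreated DOX piglets. The common log2 change was 1.39 (SE 0.221), a 2.62-fold increase with adjusted p = 6.37e-04. An exact permutation of treatment within the experiments gave two-sided p = 8.59e-06, the smallest its 232848 splits allow. Both title genes were chosen with earlier results of these data known, so their permutation p-values do not come from an independent choice. Within the 6 slide-by-experiment sets that held treated and untreated piglets the difference was 1.07 to 3.02.

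DMBT1 was higher in every treated piglet than the mean of its untreated group, and its response was unequal between the drugs. It stood at 0.30 to 1.11 (median 0.55) in DOX treated piglets, against -0.28 to 0.34 (median -0.12) in untreated ones. After BUCY its levels were 1.35, 0.87, -0.13, 0.81 and 1.18, against -2.25, -2.84, -2.16, -2.42 and -1.78 in untreated ones. The BUCY groups lay far apart and the DOX groups overlapped narrowly. The common log2 change was 1.78 (SE 0.297, adjusted p = 0.00107), with an exact two-sided permutation p of 1.72e-05. After BUCY it was 3.11 and after DOX 0.67, a difference of 2.44 that passed its own test (adjusted p = 3.26e-04). The untreated levels differed by -2.23 (BUCY minus DOX experiment, adjusted p = 2.39e-07).

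The other called genes of mucosal defence were LYZ, PGLYRP2, MUC4, MUC20 and BPI; MUC4, MUC20 and BPI are named here after their values were seen. PGLYRP2, an amidase that cuts bacterial peptidoglycan, had a common log2 change of 0.87 (SE 0.162, adjusted p = 0.00279), and median centring ended its call; the mean of probes gave 0.48. LYZ, lysozyme, which breaks bacterial cell walls, rose 1.73 on the log2 scale (SE 0.458, adjusted p = 0.0265), unevenly across piglets. It stood at 1.07 to 2.51 (median 2.21) in DOX treated piglets and -1.58 to 0.42 (median 0.05) in untreated ones, with no overlap. Its BUCY treated levels were -2.81, 0.34, 1.32, -1.94 and -2.16, overlapping the untreated -1.25, -4.08, -2.35, -2.73 and -0.70. Within slides the LYZ difference ran from -1.45 to 3.11. The LYZ call ended without BUCY untreated array 2 (adjusted p = 0.0522) or BUCY treated array 2 (adjusted p = 0.0529), and under 6 of the 19 alternatives; the lowest value was 0.99, on Cy5 alone.

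**Figure D2:**
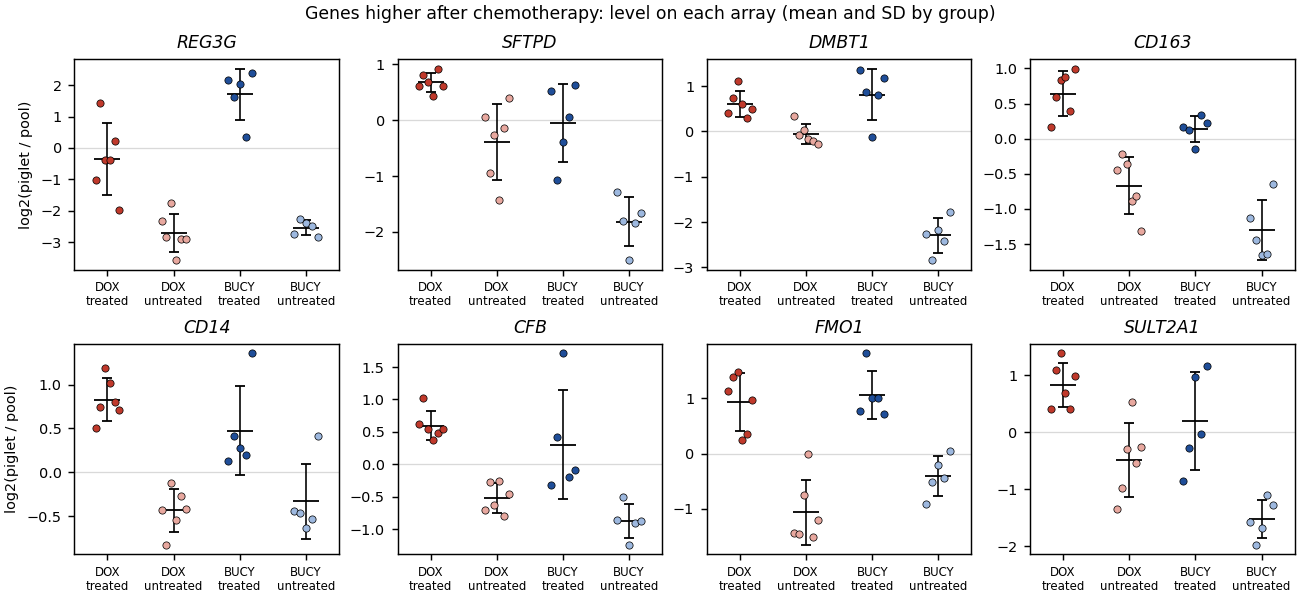
Level of 8 genes on each of the 22 arrays (log2 ratio of piglet to pool), one point per piglet, with group mean and SD, in the order DOX treated, DOX untreated, BUCY treated, BUCY untreated. SFTPD, CD163, CFB and FMO1 show no overlap in either experiment, while DMBT1 rises far more after BUCY.

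Complement and acute phase genes rose in part, 6 of 24 tested higher and 0 lower, against 3.5% and 3.78% of all genes, with a median log2 change of 0.39. The list medians were 0.06 after DOX and 0.59 after BUCY, and 1 member differed between the drugs by test. Median centring left 3 called. CFB, the factor B that builds the alternative pathway's convertase, stood at 0.37 to 1.03 (median 0.54) in DOX treated piglets and -0.80 to -0.26 (median -0.54) in untreated ones. In BUCY treated piglets it was -0.32, 0.42, 1.71, -0.19 and -0.09, against -0.86, -0.50, -1.24, -0.91 and -0.88 in untreated ones. The groups did not overlap in either experiment, and the increase was 1.12 after DOX and 1.18 after BUCY on the log2 scale (BUCY minus DOX 0.07, SE 0.357). The common change was 2.21-fold (log2 1.15, SE 0.174, adjusted p = 3.95e-04). CP, the copper-carrying ferroxidase ceruloplasmin, rose 1.78-fold (log2 0.83, SE 0.119, adjusted p = 2.23e-04). The log2 value of CP was 2.09 with the Agilent log ratio and 0.52 with the mean of probes, and its probe was well above background on 3 of 5 BUCY untreated arrays and on all others.

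The terminal complement component C9 rose 2.36-fold (log2 1.24, SE 0.259, adjusted p = 0.00680), a call that ended without the 6 arrays whose title carries the suffix _2 (0.96). Those arrays are DOX treated array 3, BUCY treated arrays 3, 4 and 5, and BUCY untreated arrays 4 and 5. Leaving them out mostly thins the BUCY experiment, so a call lost in this way cannot be tied to the suffix itself. C3, the central component, rose 1.56-fold (log2 0.64, SE 0.135, adjusted p = 0.00712), a call that median centring ended (0.29). Within slides the C3 difference ran from -0.09 to 1.03.

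Macrophage genes did not move as a block: 2 of 17 tested were higher and 2 lower, with a median of -0.16. That was 23.5% called, against 10.8% of genes with a symbol. CD163, the macrophage receptor that clears haemoglobin, stood at 0.16 to 1.0 (median 0.72) in DOX treated piglets, against -1.31 to -0.22 (median -0.63) in untreated ones. BUCY treated piglets had levels of 0.17, 0.12, -0.15, 0.34 and 0.22, against -1.13, -1.44, -1.65, -1.64 and -0.64 in untreated ones. All 11 treated piglets lay above all untreated piglets of both experiments. CD163 rose 2.59-fold (log2 1.37, SE 0.139, adjusted p = 2.89e-06), by 1.31 after DOX and 1.44 after BUCY, and by 0.49 to 1.82 within slides.

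CD14, the co-receptor for bacterial lipopolysaccharide, stood at 0.50 to 1.19 (median 0.77) in DOX treated piglets and -0.83 to -0.12 (median -0.43) in untreated ones. Levels in BUCY treated piglets were 0.13, 0.41, 0.28, 0.19 and 1.36, against -0.45, -0.47, -0.64, -0.53 and 0.41 in untreated ones. The DOX groups did not overlap, and in the BUCY experiment untreated piglet 5 reached into the treated range. That piglet shared a slide with BUCY treated piglet 5, the highest of the BUCY treated group. Within slides the CD14 difference was 0.76 to 1.39. CD14 rose 2.08-fold (log2 1.06, SE 0.150, adjusted p = 2.03e-04). The other called macrophage genes went down. CCR2, the receptor that draws monocytes from blood, had a log2 change of -0.46 (adjusted p = 0.00413), and AIF1, a cytoskeletal protein of macrophages, one of -0.48 (adjusted p = 0.0185). Slide as a fixed block ended both of these calls, and the AIF1 call also ended without the experiment block and on Cy5 alone. The log2 value of CCR2 was -0.85 with the Agilent log ratio, and that of AIF1 -0.82 under median centring.

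Of 22 neutrophil and inflammatory genes, 3 rose and 3 fell (27.3%, against 10.8% of genes with a symbol), with a median of 0.20. Without the experiment block or under median centring 3 were called. CXCL2, a chemokine that attracts neutrophils, rose 2.45-fold (log2 1.29, SE 0.319, adjusted p = 0.0186), a call that ended with slide as a fixed block. Without BUCY treated arrays 2 and 3 CXCL2 was still called, at 0.83. MMP9, a matrix-cutting protease of neutrophils, rose 2.11-fold (log2 1.08, SE 0.224, adjusted p = 0.00636), a call that ended without the experiment block and under median centring. RETN, resistin, a secreted hormone that myeloid cells make in humans, went the other way. It stood at -1.96 to -0.46 (median -1.30) in DOX treated piglets and at -0.38 to 1.24 (median 0.71) in untreated ones. After BUCY its levels were -2.31, -1.97, -1.32, -2.15 and -1.56, against -0.61, 0.93, -1.17, -0.66 and -1.05 in untreated ones. No treated piglet reached the untreated range of its experiment. RETN was 3.0-fold lower (log2 change -1.59, SE 0.254, adjusted p = 6.45e-04), and its log2 value with the Agilent log ratio was -2.50.

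T and NK cell genes fell: 17 of 26 tested were lower and 0 higher, against 3.78% and 3.5% of all genes. The median log2 change was -0.62, with -0.41 after DOX and -0.65 after BUCY. Averaged over the list, the level ran from -0.56 to 0.28 in DOX treated and 0.09 to 0.37 in DOX untreated piglets, and from -1.11 to -0.64 in BUCY treated and -0.30 to 0.15 in BUCY untreated piglets. The BUCY groups did not overlap on this average and the DOX groups did. With single arrays left out 15 to 18 members were called. The count was 10 without the experiment block and 10 without the arrays with a title suffix, and 7 of the 12 members well above background on all 22 arrays. In bulk tissue, fewer cells of a type and less RNA per cell cannot be told apart. Red cell and platelet genes, a measure of blood in the sample, averaged -0.02 to 0.02 in DOX treated against -0.02 to 0.13 in DOX untreated piglets, and -0.09 to 0.16 in BUCY treated against -0.02 to 0.09 in BUCY untreated piglets; their part was not tested.

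**Figure D3:**
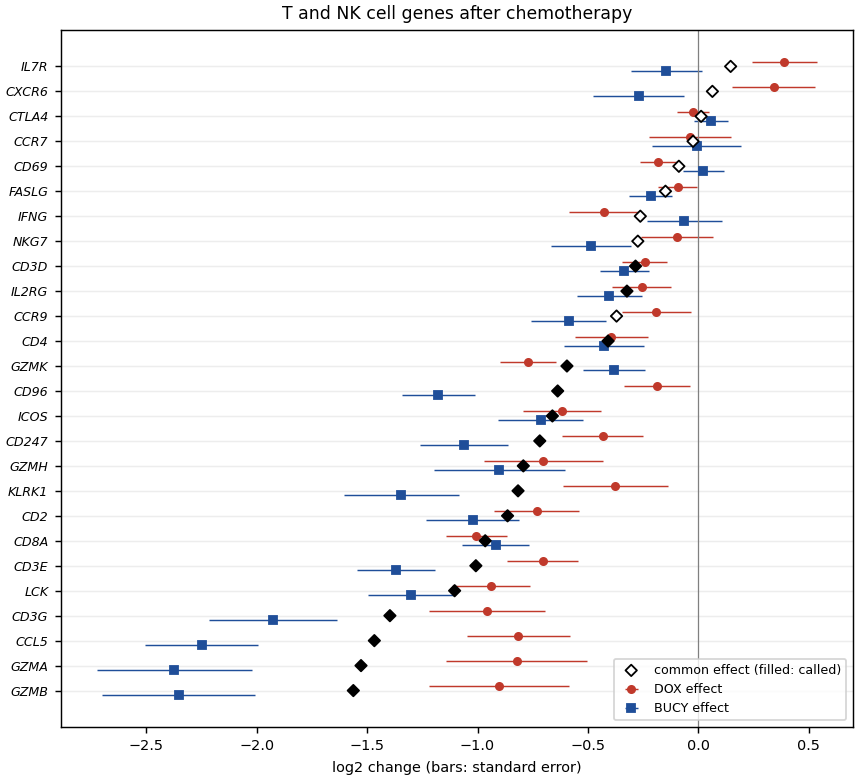
Log2 change of the 26 tested T and NK cell genes after DOX and after BUCY (bars, standard error) and the common effect (diamonds, filled where called). The 17 filled diamonds all lie below 0, and GZMB, GZMA, CCL5 and CD3G have the largest decreases; of these, CCL5 passed the test for a larger decrease after BUCY.

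CD8A, the co-receptor chain of cytotoxic T cells, stood at -0.67 to -0.01 (median -0.34) in DOX treated piglets, against 0.23 to 1.13 (median 0.72) in untreated ones. In BUCY treated piglets it was -1.16, -1.08, -1.32, -1.26 and -1.0, against -0.25, 0.20, -0.44, -0.42 and -0.32 in untreated ones. The groups did not overlap in either experiment, and the log2 change was -1.0 after DOX and -0.92 after BUCY (BUCY minus DOX 0.09, SE 0.207). Its probe was well above background on 3 of 5 BUCY treated arrays and on all arrays of the other groups. CD8A was 1.95-fold lower (common log2 change -0.97, SE 0.102, adjusted p = 4.25e-06). The size depended on the processing, with -1.79 for the Agilent log ratio and -0.53 for the mean of probes, and the call held under both.

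LCK, the kinase that starts T cell receptor signalling, stood at -0.68 to 0.39 (median -0.16) in DOX treated piglets and 0.45 to 1.14 (median 0.70) in untreated ones. BUCY treated piglets had levels of -0.94, -1.27, -0.68, -1.04 and -0.94, against 0.81, 0.65, -0.05, 0.10 and 0.14 in untreated ones. Neither experiment had any overlap, and LCK was 2.15-fold lower (log2 change -1.10, SE 0.134, adjusted p = 2.78e-05). The receptor chains CD3E and CD3G fell 2.01-fold (log2 change -1.01, SE 0.137, adjusted p = 1.18e-04) and 2.63-fold (log2 change -1.40, SE 0.216, adjusted p = 4.68e-04). The CD3G probe was well above background on 4 of 5 BUCY treated arrays and on all others. The Agilent log ratio gave -1.70 for LCK and -2.29 for CD3G, and the mean of probes -0.63 and -0.76.

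The cytotoxic granule proteases GZMB and GZMA and the chemokine CCL5, which T and NK cells release, were, with CD3G, the members with the largest decreases. GZMB was 2.95-fold lower (log2 change -1.56, SE 0.276, adjusted p = 0.00169). Within slides its difference ran from -2.87 to 0.47, the latter in the DOX experiment. GZMA was 2.88-fold lower (log2 change -1.53, SE 0.284, adjusted p = 0.00266), a call that ended without the arrays with a title suffix. GZMA had a value under 18 of the 19 alternatives, as did CD3G, whose probe was not well above background on every array. Under those 18 the log2 value of GZMA ran from -2.29 to -1.40, so its fold is uncertain. CCL5 stood at -0.88 to 0.40 (median -0.28) in DOX treated piglets and 0.09 to 0.85 (median 0.51) in untreated ones. Levels in BUCY treated piglets were -2.23, -2.84, -1.91, -2.06 and -2.07, against 0.70, 0.39, -0.74, -0.29 and 0.08 in untreated ones. The DOX groups overlapped and the BUCY groups did not. The common change of CCL5 was -1.47 (SE 0.228, adjusted p = 4.68e-04), and its decrease after BUCY exceeded that after DOX by 1.43 (BUCY minus DOX log2 change -1.43, adjusted p = 0.0169).

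CCR10, a homing receptor of mucosal lymphocytes and plasma cells, stood at -0.73 to -0.58 (median -0.67) in DOX treated piglets and 0.29 to 1.05 (median 0.38) in untreated ones. After BUCY its levels were -0.94, -0.50, -0.02, -0.76 and -0.42, against 0.26, -0.32, 0.14, -0.02 and 0.04 in untreated ones. The DOX groups lay apart and the BUCY groups overlapped. CCR10 was 1.83-fold lower (log2 change -0.87, SE 0.119, adjusted p = 1.25e-04), and its log2 value with the Agilent log ratio was -1.50. CCL21, a chemokine of lymphatic vessels that guides lymphocytes and dendritic cells, was 1.96-fold lower (log2 change -0.97, SE 0.160), with -0.97 after DOX and -0.98 after BUCY.

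CD1D, which presents lipids to natural killer T cells, was 1.48-fold lower, STAT4, which carries the interleukin-12 signal, 1.33-fold lower, and PSTPIP1, a cytoskeletal adaptor of blood cells, 2.0-fold lower. The highest adjusted p among CCL21 and these genes was 0.00162. With the Agilent log ratio the log2 value was -0.94 for CD1D and -0.88 for STAT4, and with the mean of probes it was -0.23 for STAT4 and -0.53 for PSTPIP1. CD70, a surface ligand on activated lymphocytes, was higher by 0.56 on the log2 scale (SE 0.088, adjusted p = 5.74e-04), and by 1.68 with the Agilent log ratio. CD70 and STAT4 had a value under 18 of the 19 alternatives. The same held for CD8A and CD3G, whose probes were not well above background on every array. The sizes given for CD70 and STAT4 are therefore uncertain. Of 6 B and plasma cell genes tested, 2 were lower (33.3%, against 5.77% of genes with a symbol). They were CCR10 and the receptor signalling chain CD79A (log2 change -0.51, SE 0.124, adjusted p = 0.0179). CD79A, like CD70, had a value under 18 of the 19 alternatives, so its size is uncertain too. The CD79A call ended without the experiment block, with slide as a fixed block and without the arrays with a title suffix, and CCR10 alone was then called; the Agilent log ratio gave -1.26 for CD79A.

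The mast cell and eosinophil list had 2 lower and 0 higher members of 6 tested (33.3%, against 10.8% of genes with a symbol called either way). MCT7, a mast cell tryptase, was 1.79-fold lower (log2 change -0.84, SE 0.177, adjusted p = 0.00714), with a log2 value of -2.01 by the Agilent log ratio; its probe was well above background on 5 of 6 DOX treated and 4 of 5 BUCY treated arrays and on all untreated ones. MS4A2, a chain of the IgE receptor, was called lower (adjusted p = 3.33e-04), but its probe stood well above background on 3 of 6 DOX treated and 0 of 5 BUCY treated arrays, against 6 of 6 and 4 of 5 untreated ones, so no fold is given. Among members well above background on all arrays, 0 were called.

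**Figure D4:**
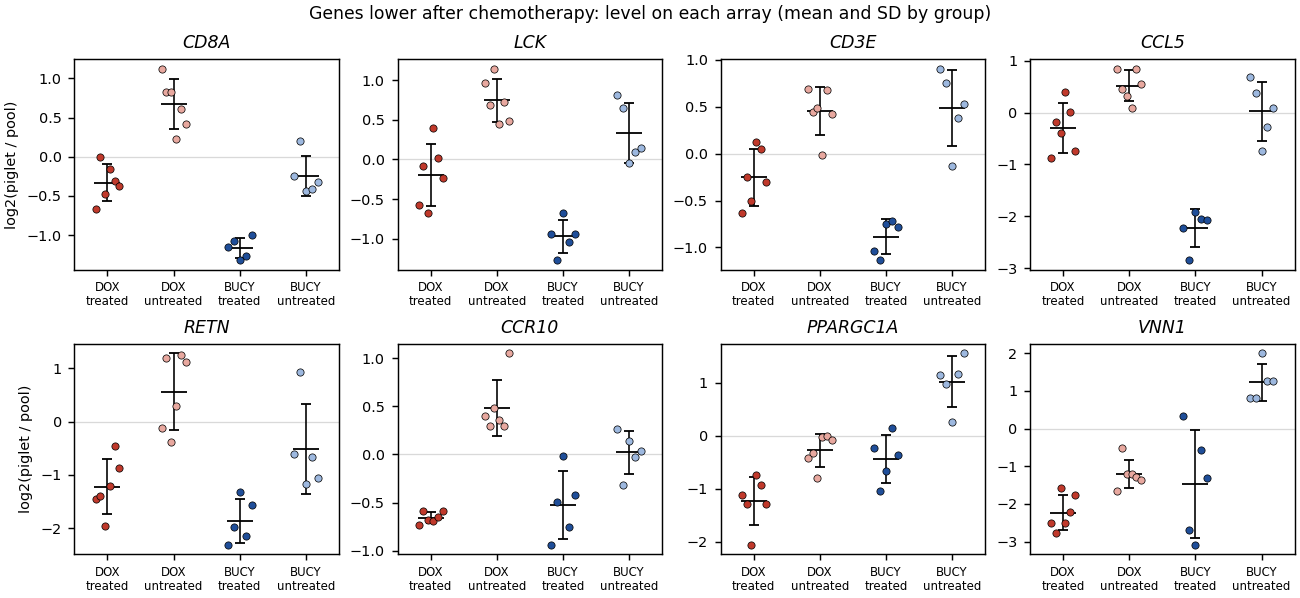
Level of 8 genes on each of the 22 arrays (log2 ratio of piglet to pool), one point per piglet, with group mean and SD, in the order DOX treated, DOX untreated, BUCY treated, BUCY untreated. CD8A, LCK and RETN show no overlap in either experiment, and VNN1 is lowest, within its group, on BUCY treated arrays 2 and 3.

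MHC class II genes, which present antigen to helper T cells, were lower in 4 of 10 tested and higher in 0, with a median of -0.68. Among genes with a symbol 5.77% were lower and 5.08% higher. The medians were -0.19 after DOX and -1.21 after BUCY, and 4 of the 10 differed between the drugs by test. SLA-DRA changed by -0.85 (adjusted p = 0.0350), SLA-DQA1 by -0.76 (adjusted p = 0.0232) and SLA-DOA by -0.68 (adjusted p = 0.0173). The log2 values after DOX were -0.21, -0.25 and -0.32 in that order, and none of these was called. No member was called without BUCY treated arrays 2 and 3, nor without the arrays with a title suffix. The count was 2 without DOX treated array 1, BUCY untreated array 1, 2, 3 or 5, or BUCY treated array 2, and 7 without DOX treated array 4. The SLA-DRA call ended without any of the 6 arrays that gave a count of 2, and without BUCY treated array 3 (adjusted p = 0.0538 to 0.0683). It also ended under 6 alternatives, at -0.55 without BUCY treated arrays 2 and 3. The average of the drug effects, in which both experiments weigh alike, called 7 members, and 2 were called without the experiment block or on Cy5 alone. Close sequences in the MHC can share signal between probes. MHC class I genes had 0 of 16 called by limma, with 3 at an unadjusted p under 0.05.

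Enzymes of drug and hormone metabolism were higher in 4 of 28 tested and lower in 0 (14.3%, against 10.8% of genes with a symbol called either way). The list median of 0.06 became -0.15 under median centring. The medians were 0.16 after DOX and -0.03 after BUCY, and 3 of the 28 differed between the drugs by test. After BUCY alone 5 members were called higher and 5 lower, against 8.23% and 9.04% of all genes. After DOX alone 1 was called higher and 0 lower, against 0.368% and 0.481%. FMO1, a monooxygenase that oxidises drugs, stood at 0.24 to 1.47 (median 1.05) in DOX treated piglets and -1.51 to -0.01 (median -1.33) in untreated ones. In BUCY treated piglets it was 0.77, 1.81, 1.0, 1.0 and 0.72, against -0.92, -0.52, -0.22, -0.44 and 0.04 in untreated ones. No untreated piglet of either experiment reached its treated group. FMO1 rose 3.37-fold (log2 1.75, SE 0.199, adjusted p = 1.27e-05), by 1.99 after DOX and 1.47 after BUCY.

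SULT2A1, which sulphates steroids and bile acids, rose 2.81-fold (log2 1.49, SE 0.232, adjusted p = 4.90e-04), with a log2 value of 2.52 by the Agilent log ratio. Its levels were 0.40 to 1.38 (median 0.84) in DOX treated against -1.34 to 0.53 (median -0.42) in untreated piglets. BUCY treated piglets had levels of -0.86, -0.28, 0.97, -0.04 and 1.16, against -1.58, -1.97, -1.67, -1.11 and -1.28 in untreated ones. The BUCY groups did not overlap and the DOX groups did. SULT1A3, which in humans sulphates catecholamines, rose 1.76-fold (log2 0.82, SE 0.125, adjusted p = 4.09e-04) with no overlap in either experiment; median centring gave 0.51. NQO1, a quinone reductase, had a log2 change of 0.81 (adjusted p = 0.0273), a call that ended without BUCY untreated array 2 (adjusted p = 0.0514) or DOX treated array 2 (adjusted p = 0.0513), under median centring, with the mean of probes (0.52) and without the arrays with a title suffix.

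PPARGC1A, a coactivator that drives mitochondrial growth, stood at -2.05 to -0.74 (median -1.19) in DOX treated piglets and -0.79 to 0.00 (median -0.20) in untreated ones. Levels in BUCY treated piglets were -0.22, -1.05, -0.67, 0.15 and -0.36, against 1.16, 0.97, 0.26, 1.17 and 1.56 in untreated ones. The BUCY groups lay apart, the DOX groups overlapped narrowly, and PPARGC1A was 2.27-fold lower (log2 change -1.18, SE 0.174, adjusted p = 2.92e-04). PRKAA2, a catalytic subunit of the energy sensor AMP-activated kinase, was higher by 0.77 (SE 0.143, adjusted p = 0.00278), and PDK4, which blocks entry of pyruvate into the citrate cycle, by 1.33 (SE 0.246, adjusted p = 0.00248). Median centring ended both calls, with 0.51 for PRKAA2. Of 26 tested genes of glycolysis and gluconeogenesis 1 was called higher and 1 lower (7.69%, against 10.8% of genes with a symbol).

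Enterocyte genes were lower in part, with a larger median decrease after BUCY; 4 of the 12 differed between the drugs by test. Of 12 tested, 3 (25%) were called lower (VNN1, FOLH1B and XPNPEP2), against 5.77% of genes with a symbol. The list median was -0.79, with -0.14 after DOX and -1.67 after BUCY. The list's level averaged -1.0 to -0.52 in DOX treated and -1.09 to -0.38 in DOX untreated piglets, and -1.69 to -0.07 in BUCY treated and 0.40 to 1.15 in BUCY untreated piglets. Of the 3 called, VNN1, a pantetheinase, was the one called under all 19 alternatives, and the XPNPEP2 call (adjusted p = 0.0457) ended with any of 15 single arrays left out. The count was 1 without DOX treated array 1 or 2, BUCY untreated array 3 or 5, or BUCY treated array 2, 3 or 4, and under 6 alternatives, among them the omission of BUCY treated arrays 2 and 3 together. It was 5 with scaling between arrays or the average of the drug effects. VNN1 stood at -2.78 to -1.59 (median -2.35) in DOX treated piglets and -1.64 to -0.52 (median -1.24) in untreated ones. After BUCY its levels were 0.33, -2.69, -3.08, -0.57 and -1.30, against 0.81, 0.81, 2.0, 1.27 and 1.26 in untreated ones. Its common change was -1.78 (SE 0.348, adjusted p = 0.00401), and BUCY treated arrays 2 and 3 were the lowest of their group.

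The glutamate transporter SLC1A1 (log2 change -1.45, adjusted p = 0.0231) and the tight junction protein CLDN15 (-0.99, adjusted p = 0.0130) were also lower. Both calls ended with slide as a fixed block and without the arrays with a title suffix, and that of SLC1A1 also without BUCY treated arrays 2 and 3; the mean of probes gave -0.85 for SLC1A1. For CLDN15 the log2 difference was -0.36 after DOX and -1.74 after BUCY, and the difference passed its test (adjusted p = 0.0261).

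Of 12 p53 targets tested 2 were higher and 0 lower, against 3.5% and 3.78% of all genes, with a median of 0.24 (-0.02 under median centring), and of 8 DNA repair genes 3 were higher and 0 lower, with a median of 0.31 (-0.0021 under median centring). The p53 medians were 0.06 after DOX and 0.52 after BUCY, with 3 of the 12 differing between the drugs by test, and the repair medians were 0.0022 after DOX and 0.66 after BUCY, with 3 of the 8 differing. GDF15, a stress hormone, stood at -0.47 to 1.36 (median 0.98) in DOX treated piglets and -0.93 to 0.23 (median 0.15) in untreated ones. In BUCY treated piglets it was -0.44, 1.41, 0.22, -0.75 and 0.25, against -1.71, -2.37, -1.62, -2.10 and -1.94 in untreated ones. The BUCY groups lay apart and the DOX groups overlapped. GDF15 was 2.56-fold higher (log2 1.35, SE 0.277, adjusted p = 0.00570). SFN, a checkpoint protein of epithelium, had a common change of 1.27 (adjusted p = 0.0348). Its call, and with it the p53 count of 2, ended without DOX treated array 1, BUCY untreated array 1, 2, 3 or 5, or BUCY treated array 3 (adjusted p = 0.0571 to 0.0636), while with both BUCY treated arrays 2 and 3 left out SFN was called at 0.78. The p53 count was 1 as well without the experiment block, on Cy5 alone, under median centring, with slide or scan day as a fixed block and without the arrays with a title suffix, and 4 for the average of the drug effects. The repair count was 1 without DOX untreated array 1, DOX treated array 2, BUCY untreated array 1, 2 or 3, or BUCY treated array 2. It was 1 without the experiment block, on Cy5 alone and with slide or scan day as a fixed block, 0 without the arrays with a title suffix, and 5 for the average of the drug effects.

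Ribosomal protein genes showed small increases whose direction turned with the normalisation. Of 35 tested, 9 were higher and 0 lower (25.7%, against 10.8% of genes with a symbol called either way). Members called in each experiment alone numbered 0. The median was 0.13 (0.17 after DOX and 0.03 after BUCY), and under median centring the common median was -0.26 with 0 called. The count was 4 or 5 without any of 12 arrays, namely DOX treated 1, 2, 3 or 6, DOX untreated 1 or 5, BUCY treated 2, 3 or 4, and BUCY untreated 1, 2 or 3. It was 1 with the Agilent log ratio, on Cy5 alone, with slide as a fixed block and without BUCY treated arrays 2 and 3. Of 26 interferon response genes tested, 2 were called lower and 0 higher (7.69%), against 7.28% of all genes and 10.8% of genes with a symbol. The count was 1 without DOX treated array 1 or 2, BUCY untreated array 1, 2 or 3, or BUCY treated array 2 or 3, and 0 without BUCY treated arrays 2 and 3 together, without the experiment block, with slide as a fixed block and without the arrays with a title suffix.

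Other lists held no gene called for the common effect while many of their members differed between the drugs. Of 13 cell cycle genes tested, 0 were called by limma for the common effect, with 3 at an unadjusted p under 0.05, while 9 differed between the drugs by test, against 5.88% of all genes. Their medians were -0.31 after DOX and 0.97 after BUCY. Averaged over the list, the treated levels were alike, -0.34 to 0.24 after DOX and -0.27 to 0.39 after BUCY. The untreated levels lay apart, 0.17 to 0.57 in the DOX experiment and -1.03 to -0.68 in the BUCY experiment. The drug difference in these genes therefore goes with a difference between the untreated groups, whose cause was not tested. CDK1, the kinase that drives entry into mitosis, had a log2 difference of -0.31 after DOX and 1.29 after BUCY (BUCY minus DOX 1.60, adjusted p = 0.00217), and its partner CCNB1 by -0.61 and 1.68 (BUCY minus DOX 2.29, adjusted p = 4.24e-04). Both were named after their values were seen. Without BUCY treated array 1 or DOX treated array 6, 1 cell cycle gene was called, and 5 were called for the average of the drug effects. The list median of 0.20 became -0.02 under median centring. Of 16 respiratory chain genes 0 were called by limma for the common effect, with 3 at an unadjusted p under 0.05, and 9 differed between the drugs. Their untreated levels differed as well, with a median of -0.61 (BUCY minus DOX experiment).

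Genes called in both experiments in opposite directions numbered 8 (0.0323%), of which 4 had a symbol. CYCS, cytochrome c, changed by -0.93 after DOX and 0.67 after BUCY. The chromatin protein HMGN2 changed by -0.70 and 0.48, and the mitochondrial co-chaperonin HSPE1 by -0.72 and 0.57. RPL13A, a ribosomal protein, went the other way, 0.67 after DOX and -0.42 after BUCY. Of these 8 genes 0 were called for the common effect by limma. The fatty acid desaturase SCD was called for the common effect (log2 1.12, adjusted p = 0.0169), with 0.18 after DOX and 2.25 after BUCY (difference adjusted p = 0.00143). Its call ended without the experiment block, under median centring, with slide as a fixed block and without the arrays with a title suffix. FOLH1B had a log2 difference of -0.11 after DOX and -2.96 after BUCY, and its call for the common effect (adjusted p = 0.0380) ended under 7 alternatives. It also ended without DOX treated array 1 or 2, BUCY treated array 2, 3 or 4, or BUCY untreated array 2, 3 or 5 (adjusted p = 0.0514 to 0.0692).

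**Figure D5:**
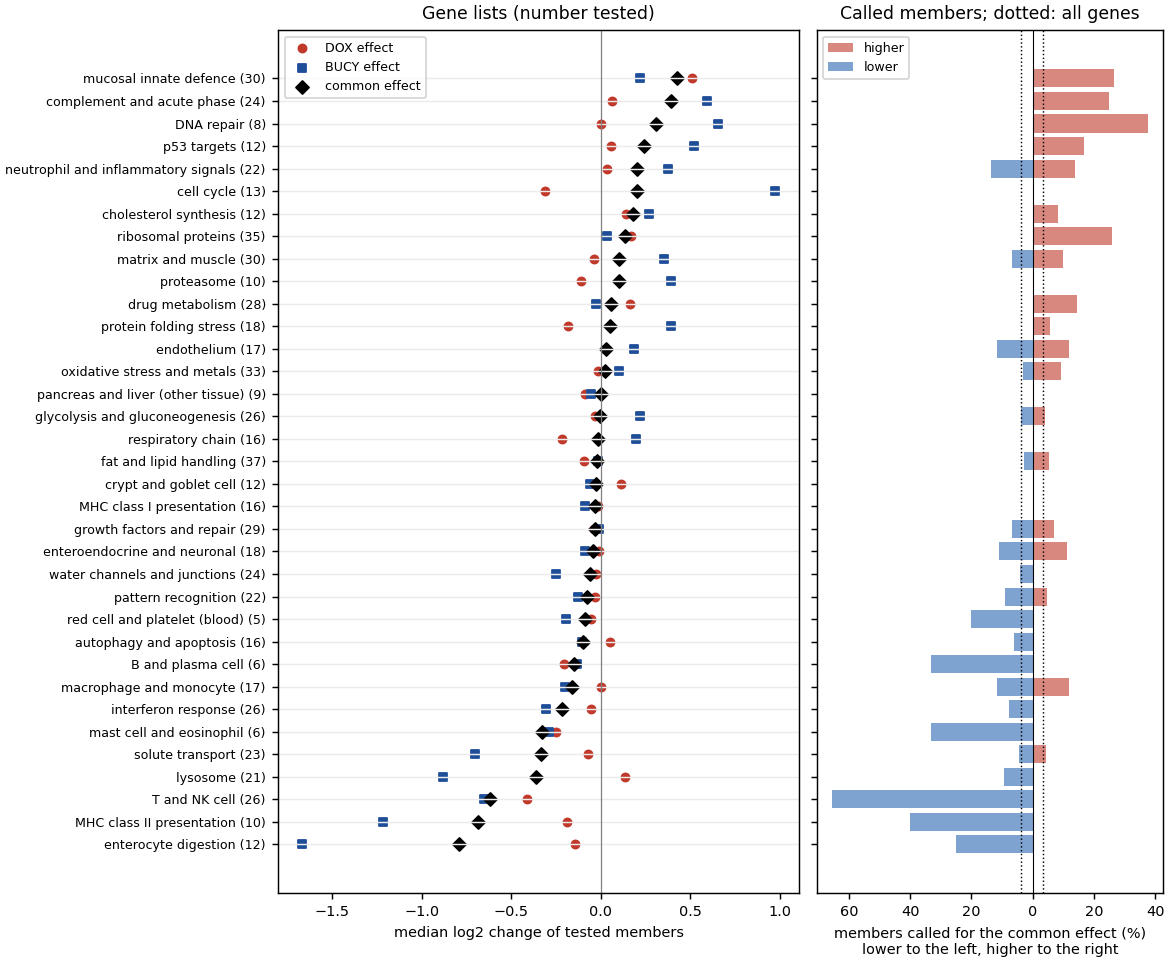
Left, median log2 change of the tested members of 35 gene lists after DOX (circles), after BUCY (squares) and for the common effect (diamonds). Right, percent of members called higher or lower, with dotted lines at 3.5% and 3.78% for all genes. Among genes with a symbol these shares were 5.08% and 5.77%. T and NK cell genes reach furthest to the lower side (17 of 26), cell cycle genes have medians of opposite sign after DOX and BUCY, and under median centring the common median of 12 lists, ribosomal proteins, DNA repair, p53 targets and drug metabolism among them, changed sign.

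The narrowest reading of a shared effect asks that every treated piglet lie beyond every untreated piglet of its experiment, in both experiments and in one direction. This held for 78 genes (0.315%), 33 higher (0.133%) and 45 lower (0.182%), all 78 called for the common effect and 44 called in each experiment alone. With DOX treated array 4 left out the count was 129, where fewer arrays have to separate. Of the 78, 15 had a symbol. Besides SFTPD, CD163, CFB, FMO1 and SULT1A3, the higher ones were CD9, a tetraspanin of the cell surface, and the small GTPase RHOV, at 0.71 and 0.90 on the log2 scale. Besides CD8A, LCK, RETN, PSTPIP1 and MS4A2, the lower ones were CD48, a surface ligand of leukocytes, at -0.63, the serotonin receptor HTR1D at -0.89 and GGTA1P at -0.52. CD9, RHOV, CD48, HTR1D and GGTA1P are named after their values were seen.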

How the data were processed

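RNA of 22 small-intestinal samples was measured on Agilent 2-colour arrays for the pig, which came from 7 slides and 3 scan days. Per the file headers (Agilent Feature Extraction 10.7.3.1) the deposited scanner files hold median spot and background intensity in both colours, a log10 ratio of processed Cy5 to Cy3, and other columns of quality flags. A deposited table of log2 values, with scale and direction read from its match to the scanner ratios of Cy5 over Cy3 (r at least 0.999 after quantile normalisation of both channels, column medians 0.00146 to 0.0180), served only as an alternative; its normalisation is not given in the sources used here.

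With limma 3.58.1 in R 4.3.3, median intensities were corrected by normexp (offset 50) and normalised by loess within arrays, control spots at weight 0. Spots marked as outliers, 3 to 52 per array, were dropped, touching 91 tested genes, and 0 spots were saturated. Of 43603 probes 6599 (15.1%) received a symbol through RefSeq genes (Sscrofa11.1). The brightest probe stood for each symbol or identifier, tested if well above background in Cy5 on at least 5 arrays. The common effect came from a model of experiment and treatment (19 residual degrees of freedom). The DOX and BUCY effects and their difference came from a model of 4 group means. Both used lmFit and eBayes, two-sided, and were tested on simulated data. Replicates are piglets; numbers follow array order and pair none. Figures were drawn with matplotlib 3.10.9.

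Genes were named by a rule: the title genes, the 15 largest increases and decreases above background, up to 4 called members per list, genes called in both experiments, and those differing between drugs; not all of them are printed, and some items are not reported here. The genes, the 35 lists and the tests were chosen with earlier results of these data known, so SFTPD, DMBT1 and the lists are no independent choice. Alternatives changed the signal source, normalisation, filter, probe choice, blocks, prior, weights and arrays.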

Additional observations from a re-analysis of the deposited data

Results flagged for a closer look

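Of 372 groups examined, 11 held an array far from the others by Dixon's criterion, and chance marks about 1 in 20 groups. CD14 stood at 1.36 in BUCY treated piglet 5, where the others had 0.13 to 0.41, and at 0.41 in BUCY untreated piglet 5, where the others had -0.64 to -0.45. FMO1 reached 1.81 in BUCY treated piglet 2 (others 0.72 to 1.0), and CYCS -0.69 in BUCY treated piglet 3 (others -0.24 to -0.11). RETN reached 0.93 in BUCY untreated piglet 2 (others -1.17 to -0.61). In DOX untreated piglets, CD3E was -0.018 in piglet 4 (others 0.43 to 0.69), CCR10 1.05 in piglet 6 (others 0.29 to 0.48) and GDF15 -0.93 in piglet 2 (others 0.09 to 0.23). Among list averages, cell cycle genes stood at -0.34 in DOX treated piglet 6 (others 0.03 to 0.24). Autophagy and apoptosis genes stood at 0.25 in DOX untreated piglet 2 (others -0.01 to 0.02), and complement genes at -0.53 in BUCY untreated piglet 3 (others -0.28 to -0.22).

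The effects of the drugs differed by limma's test of the difference (BUCY minus DOX log2 change, adjusted over all genes) for 11 genes that the report describes under the naming rule. The difference was positive for DMBT1 (2.44), SCD (2.07), CYCS (1.60), HSPE1 (1.29) and HMGN2 (1.19). It was negative for FOLH1B (-2.85), CCL5 (-1.43), SLA-DRA (-1.41), CLDN15 (-1.38), SLA-DQA1 (-1.12) and RPL13A (-1.10). RPN2, named only for its reversal under median centring, passed this test as well (0.63), as did CDK1, CCNB1, MUC4 and MUC20, which were chosen after their values were seen.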

How the results depend on the processing

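The common effect called 1802 genes, and 3203 for the average of the drug effects, 2733 with array weights, 934 under median centring, 859 on Cy5 alone, 831 without the experiment block, 808 without BUCY treated arrays 2 and 3, 788 with slide as a fixed block and 750 without the 6 arrays with a title suffix. With single arrays left out it was 1020 to 2946. The DOX effect (210) gave 134 on Cy5 alone, 89 under median centring, 692 with scaling between arrays, 349 and 355 with slide as a fixed or random block, 500 without BUCY treated arrays 2 and 3, 1272 with array weights, and 119 to 355 with single arrays left out. The BUCY effect (4277) gave 2298 with slide as a fixed block, 1479 without the suffix arrays, 1125 without BUCY treated arrays 2 and 3, and 2280 to 6292 with single arrays left out. The difference between the drugs (1457) gave 747 on Cy5 alone, 104 under median centring, 332 without the suffix arrays, 732 without BUCY treated arrays 2 and 3, and 939 to 2392 with single arrays left out. Genes called in both experiments (92) numbered 54 under median centring, 173 with scaling, 145 with slide as a random block, 283 with array weights, and 59 to 139 with single arrays left out. Genes without overlap (78) numbered 297 without the suffix arrays and 79 to 129 with single arrays left out. Fewer arrays then have to separate, which favours a higher count, so these counts do not measure stability. SFTPD (1.29 to 1.49) and DMBT1 (1.65 to 1.88) kept their direction with each array left out. Median centring, under which the median change of all genes was -0.0751 (-0.00074 under loess), reversed ERCC1 (-0.0059), GPX1 (-0.087), RPN2 (-0.027), RPS10 (-0.045), RPS21 (-0.14), RPS26 (-0.080) and RPSA (-0.099). Of 100 genes picked by the naming rule and called, 62 kept the call with each array left out and 29 also under each alternative that gave them a value; 21 of these had a value under all 19. Aquantile is among the 19 alternatives and leaves ratios as they are by construction, so it could not end a call. The cause of the other shifts was not tested. No paired analysis was possible because the replicate numbers follow array order and pair no piglets. Slides and scan days hold few arrays of each group, slide 4 holds 1 array, which limits the precision.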
